A study of Homo sapiens with 6 samples.

Results

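Transforming growth factor beta (TGF-beta) signalling was examined in human umbilical vein endothelial cells (HUVECs), primary cells of the vein of the umbilical cord, through 10 genes that encode its ligands, receptors, SMADs, a latency protein and a matrix product. The genes were TGFB1, TGFB2, TGFBR1, TGFBR2, TGFBR3, SMAD2, SMAD3, SMAD4, TGFBI and LTBP1. Every probe set annotated to exactly 1 of these symbols was taken, which gave 32 of 54613 probe sets and all 10 genes of 19775. The probe sets were taken by annotation alone, while the genes were chosen with earlier results of these data known. The study compared 3 arrays of HUVECs that received a small interfering RNA (siRNA) targeting ANRIL, a long noncoding RNA, with 3 arrays of HUVECs that received a scrambled control siRNA, to find genes downstream of ANRIL. Both groups were grown in the same endothelial medium with serum and growth factors and transfected with the same non-liposomal reagent. Neither the donors nor the time from transfection to harvest is given in the sources used here, and 1 siRNA against ANRIL was used. The design speaks of 3 sets of cells, but nothing says that these were separate donors or cultures, so p-values measure the spread between these samples, which may be technical.

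The siRNA is shown because it is the only agent that differed between the groups. Its strands were taken from the labels and are written 5′ to 3′, with the seed of the antisense strand, bases 2 to 8, in capitals.
Sense strand: ggauaugugccaugaguaagaauaa
Antisense strand: uUAUUCUUacucauggcacauauccau
The antisense strand has 27 bases, of which 25 form the full complement of the sense strand. The targeted transcript, listed as CDKN2B-AS1, was read by 1 probe set near the floor of the arrays, at percentile 9.39 of mean signal. Its log2 values were 3.69, 4.05 and 4.05 with ANRIL siRNA, against 4.08, 4.05 and 3.95 with control siRNA. It differed by −0.10 ± 0.10 (SE, n = 3 per group, limma adjusted p = 0.606 over all genes), or by 0.02 without ANRIL siRNA replicate 1, so the knockdown could not be checked on these arrays.

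TGF-beta is secreted as a latent complex that is bound to a latent TGF-beta binding protein such as LTBP1 and held in the matrix. Once released, the ligand binds the type II receptor TGFBR2, which recruits and phosphorylates the type I receptor TGFBR1, and TGFBR3 (betaglycan) presents ligand to them. TGFBR1 phosphorylates SMAD2 and SMAD3, which join SMAD4 and enter the nucleus to regulate transcription. Endothelial cells also carry the type I receptor ACVRL1 (ALK1) and the co-receptor ENG (endoglin), through which SMAD1 and SMAD5 are activated, and the balance of these branches is known to bear on vessel growth and on the change of endothelial cells toward a mesenchymal state.

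The values are log2 intensities after robust multi-array averaging (RMA), and each difference is ANRIL siRNA minus control siRNA on that scale. Pairs of arrays correlated at 0.9971 to 0.9977 within groups and 0.9964 to 0.9974 between groups, across probe sets. The small number of arrays, 3 a group, is among the limits on precision. The 10 endothelial markers checked were bright, at percentiles 87.9 to 99.4 of mean signal. All 10 lay below 0, as did 83.2% of all probe sets in the 2 brightest deciles of mean signal, where these markers lie. The mean log2 level of the 10 was 11.23 to 11.32 with ANRIL siRNA against 11.44 to 11.50 with control siRNA. Of the markers of other cells, 6 of 8 for smooth muscle, 5 of 6 measured for leukocytes, 3 of 8 for fibroblasts and 3 of 7 for epithelium lay above 0. Their mean log2 levels were 6.98 to 7.11 against 6.86 to 7.05 for smooth muscle, 5.80 to 5.98 against 5.73 to 5.80 for leukocytes, 5.61 to 5.63 against 5.57 to 5.62 for fibroblasts and 6.87 to 6.89 against 6.87 to 6.93 for epithelium, with ANRIL siRNA given first. Log2 intensities have no 0, and the 6 leukocyte markers lay at percentiles 14.7 to 71.6 of mean signal. Among all probe sets, 31.2% lay below 0 at or below the median signal and 61% above the median. The 3′ probe set of ACTB exceeded its 5′ probe set by 0.72 ± 0.13 with ANRIL siRNA and 0.54 ± 0.05 with control siRNA (SD, n = 3 each, exact permutation test, two-sided p = 0.2, with 0.1 the smallest p that 3 against 3 allows). For GAPDH the same quantity was 0.05, 0.09 and 0.04 with ANRIL siRNA, against −0.01, 0.01 and −0.01 with control siRNA, with no overlap (two-sided exact permutation test, p = 0.1, the smallest possible). The part of these shifts in the results below was not tested. In bulk samples, fewer cells of a type and less RNA per cell cannot be told apart, and how far the marker differences follow signal was not tested.

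None of the 32 probe sets passed the test. The limma fit, with Benjamini-Hochberg adjustment over all 54613 probe sets and a threshold of 0.05, called 0 of the 32 and 0 of all probe sets (0%), and the smallest adjusted p of the 32 was 0.235. At an unadjusted p under 0.05, 5 of the 32 were lower and 2 higher with ANRIL siRNA, against 6.14% lower and 8.96% higher among all probe sets. ANRIL siRNA and control siRNA values were fully apart at 7 of the 32, or 21.9%, against 21% of all. Of these, 5 were lower with ANRIL siRNA, or 15.6% against 9.97% of all, and 2 were higher, or 6.25% against 11% of all. With each gene at its brightest probe set, 9 of 10 genes lay below 0, with a median of −0.07 and a range of −0.22 to 0.01. That direction is shared by bright probe sets in general. In the 2 brightest deciles of mean signal 12 of 15 of these probe sets lay below 0, or 80%, against 83.2% of all probe sets there.

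**Figure D1:**
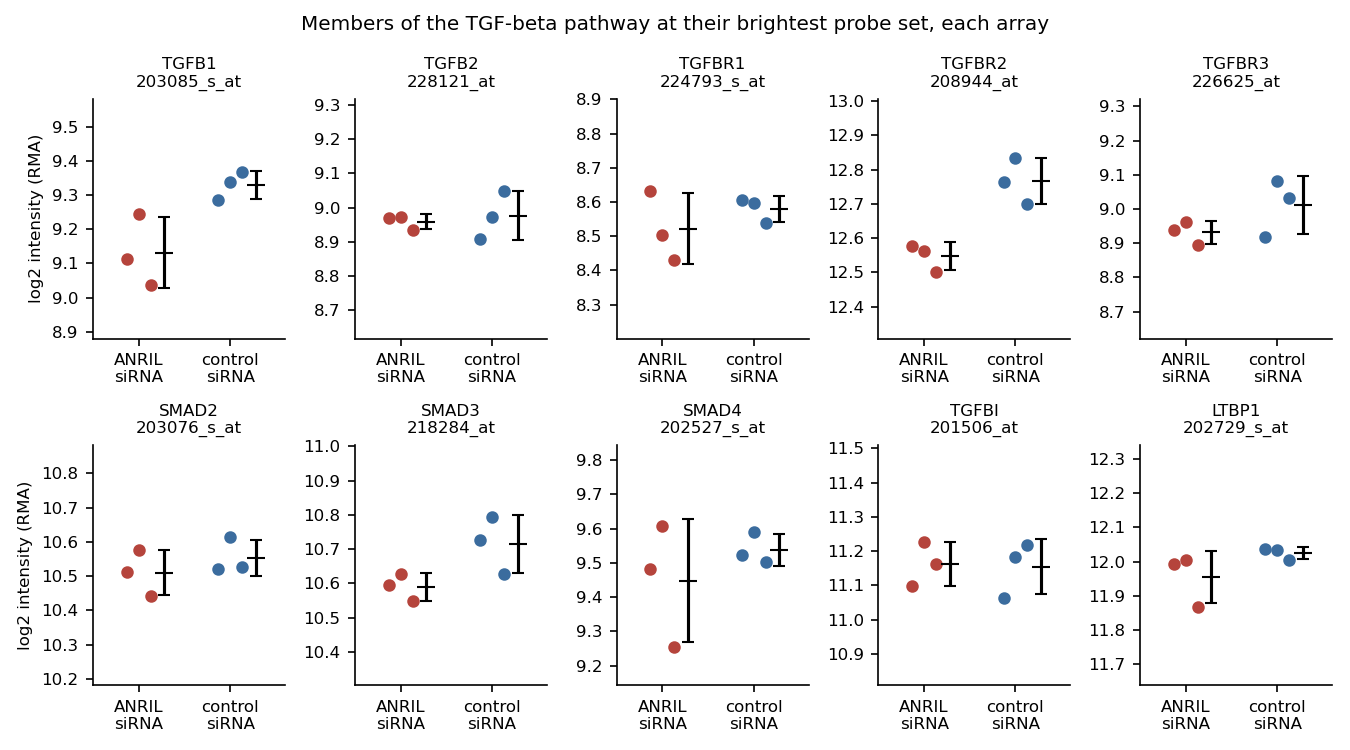
Log2 intensity of each of the 10 genes at its brightest probe set, on 3 ANRIL siRNA arrays (left, red) and 3 control siRNA arrays (right, blue). Points are arrays, bars are mean ± SD, and all panels span the same height. The groups are apart for TGFB1 and TGFBR2, or 20% of the 10 genes against 23.4% of all genes, and overlap for the other 8.

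Of the receptors, TGFBR2, the type II receptor that binds the ligand, had the smallest p of all members. Its brightest probe set, 208944_at, read 12.58, 12.56 and 12.50 with ANRIL siRNA, against 12.76, 12.83 and 12.70 with control siRNA. All 3 ANRIL siRNA arrays lay below all 3 control arrays. TGFBR2 thus differed by −0.22 ± 0.07 (SE, n = 3 per group), or 1.16-fold lower, with a 95% interval of −0.37 to −0.07. Its unadjusted p was 0.00836 and its limma adjusted p 0.235. With a prior on the variance that follows signal and is robust to outlying probe sets, its adjusted p was 0.0226, and it was the 1 member called under that setting, where 0.63% of all probe sets were called. After cyclic loess, which removes the trend of differences with signal, the difference was −0.14, with an adjusted p of 0.415, or 0.106 with that prior. Leaving out 1 array at a time gave differences of −0.25 to −0.19. The dimmer probe set 207334_s_at differed by −0.23 ± 0.20, with values of 6.69, 5.98 and 6.57 with ANRIL siRNA against 7.01, 6.35 and 6.57 with control siRNA, and its groups overlapped. With 1 array left out in turn, its difference ran from −0.38, without control replicate 2, to −0.01, without ANRIL siRNA replicate 2.

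TGFBR3, the co-receptor betaglycan, lay below 0 at both probe sets without passing. Probe set 204731_at read 7.74, 7.61 and 7.48 with ANRIL siRNA, against 7.83, 7.85 and 7.79 with control siRNA, and the groups did not overlap. It differed by −0.21 ± 0.08 (SE, n = 3 per group, limma adjusted p = 0.266). The brighter 226625_at differed by −0.08 ± 0.07 and its groups overlapped, with 8.94, 8.96 and 8.90 against 8.92, 9.08 and 9.03. TGFBR1, the type I receptor kinase, read 8.63, 8.50 and 8.43 with ANRIL siRNA and 8.61, 8.60 and 8.54 with control siRNA at its brightest probe set. The difference there was −0.06 ± 0.07, smaller than the SD of 0.10 among the ANRIL siRNA arrays. Its other probe sets did not move alike: 236561_at differed by −0.01 ± 0.07, and the dim 206943_at by 0.20 ± 0.09 (limma adjusted p = 0.326), at percentile 35.2 of mean signal.

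Of the ligands, TGFB1 gave opposite signs at its 2 probe sets. The brighter, 203085_s_at, read 9.11, 9.24 and 9.04 with ANRIL siRNA, against 9.29, 9.34 and 9.37 with control siRNA, with no overlap. It differed by −0.20 ± 0.07 (SE, n = 3 per group), or 1.15-fold lower, with a limma adjusted p of 0.271 and a 95% interval of −0.36 to −0.04. The dimmer 203084_at read 6.18, 6.07 and 6.09 against 6.09, 5.99 and 6.02 and differed by 0.08 ± 0.07. As the mean of both probe sets, TGFB1 differed by −0.06. The suffix _s_at marks probe sets whose probes match more than 1 transcript, so the pair need not read the same transcripts.

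TGFB2, which needs TGFBR3 for efficient binding to TGFBR2, was split over its 5 probe sets, with 3 below 0 and 2 above. The brightest, 228121_at, read 8.97, 8.97 and 8.93 with ANRIL siRNA, against 8.91, 8.97 and 9.05 with control siRNA. The difference of −0.02 ± 0.07 has a 95% interval of −0.17 to 0.13, and the groups overlapped. Probe set 220407_s_at differed by 0.16 ± 0.08 (limma adjusted p = 0.384), with 8.06, 7.97 and 7.80 against 7.71, 7.85 and 7.80. Probe set 220406_at, at percentile 38.4, had no overlap, with 5.48 on each ANRIL siRNA array against 5.68, 5.53 and 5.63 with control siRNA, and differed by −0.13 ± 0.07 (limma adjusted p = 0.373). The other 2 probe sets differed by −0.05 ± 0.10 and 0.00 ± 0.08.

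**Figure D2:**
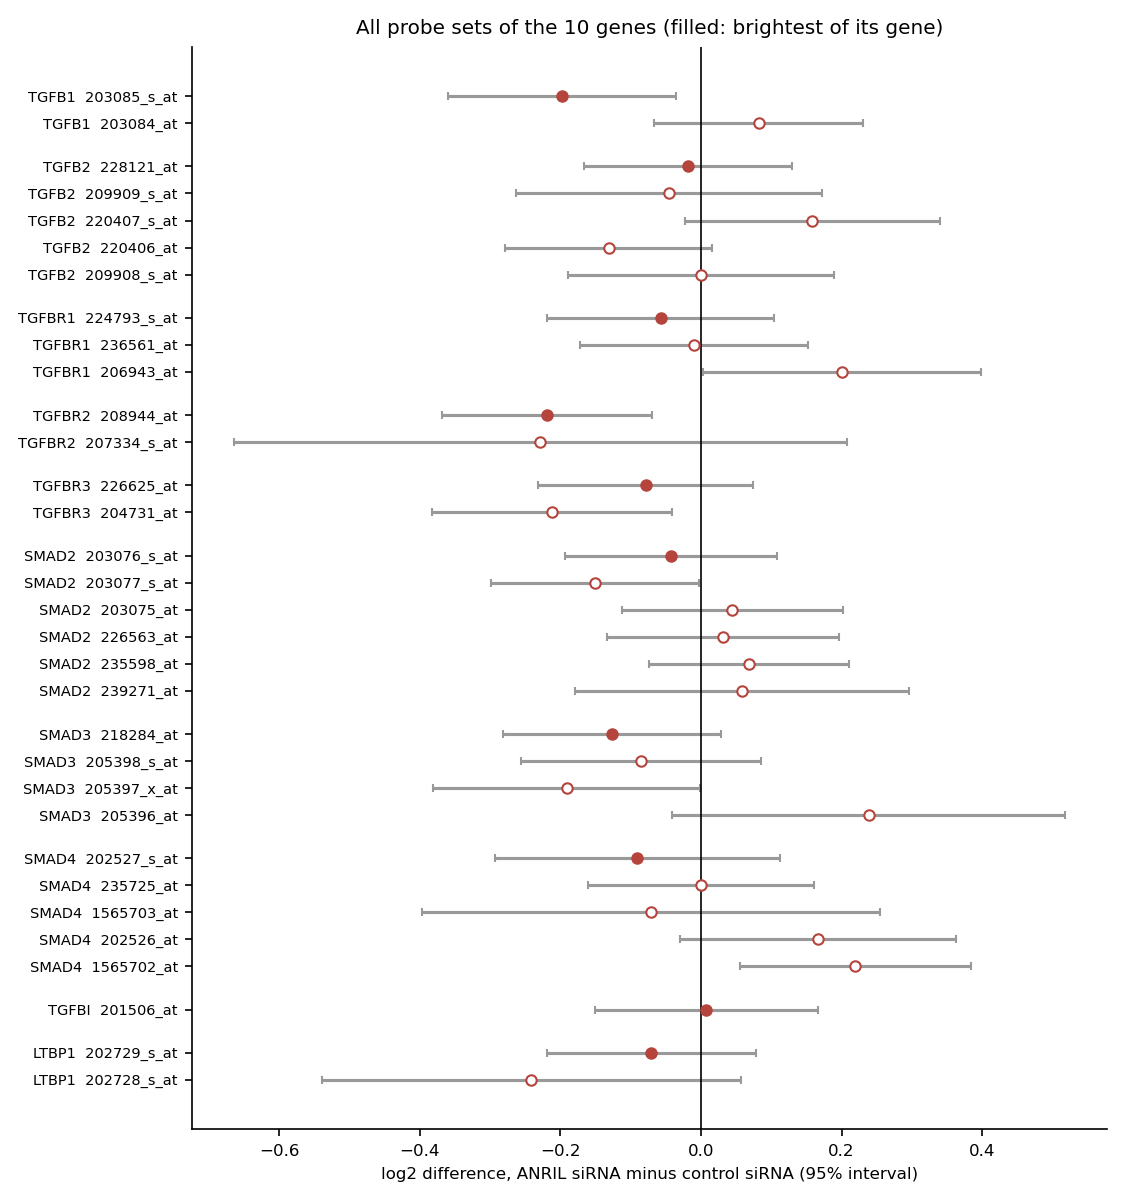
Log2 difference, ANRIL siRNA minus control siRNA, with its 95% interval from limma, for all 32 probe sets grouped by gene and ordered from the brightest down. Filled points are the brightest probe set of a gene. Both probe sets lie below 0 for TGFBR2, TGFBR3 and LTBP1, while TGFB1, TGFB2, TGFBR1, SMAD2, SMAD3 and SMAD4 have points on both sides.

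SMAD3, the receptor-activated SMAD that binds DNA directly, was lower at its 3 brighter probe sets and higher at its dimmest, and none passed. Its brightest probe set, 218284_at, read 10.60, 10.63 and 10.55 with ANRIL siRNA, against 10.73, 10.79 and 10.63 with control siRNA. The groups overlapped, with ANRIL siRNA replicate 2 beside control replicate 3, and the difference was −0.13 ± 0.07 (SE, n = 3 per group, limma adjusted p = 0.41). Probe set 205398_s_at differed by −0.09 ± 0.08 and 205397_x_at by −0.19 ± 0.09 (limma adjusted p = 0.328). The dimmest, 205396_at, differed by 0.24 ± 0.13, with 6.78, 6.54 and 6.87 with ANRIL siRNA against 6.77, 6.29 and 6.41 with control siRNA, and control replicate 1 stood with the ANRIL siRNA arrays. Without that control array the difference was 0.38.

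SMAD2, its close relative, was below 0 at 2 of 6 probe sets. The brightest, 203076_s_at, read 10.51, 10.58 and 10.44 with ANRIL siRNA, against 10.52, 10.61 and 10.53 with control siRNA, a difference of −0.04 ± 0.07. The next, 203077_s_at, read 9.64, 9.69 and 9.65 against 9.86, 9.84 and 9.73, with no overlap, and differed by −0.15 ± 0.07 (SE, n = 3 per group, limma adjusted p = 0.324). The other 4 differed by 0.03 to 0.07 and overlapped. As the mean of its 6 probe sets, SMAD2 differed by 0.00.

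SMAD4, the common partner of the receptor-activated SMADs, read 9.48, 9.61 and 9.25 with ANRIL siRNA, against 9.52, 9.59 and 9.50 with control siRNA, at its brightest probe set. The difference of −0.09 ± 0.09 rested on ANRIL siRNA replicate 3, the lowest array, and was 0.01 without it. Probe set 235725_at differed by 0.00 ± 0.07, and 1565703_at by −0.07 ± 0.15. The 2 dimmest, at percentiles 8.77 and 0.806 of mean signal, were higher with ANRIL siRNA on every array, with differences of 0.17 ± 0.09 and 0.22 ± 0.07. At 1565702_at, the dimmest of all 32, the values were 3.62, 3.59 and 3.41 with ANRIL siRNA against 3.33, 3.28 and 3.34 with control siRNA (limma adjusted p = 0.249). In the dimmest decile of all probe sets the median difference was 0.04.

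LTBP1, the latent TGF-beta binding protein, was among the brightest of the 32 and was lower at both probe sets without passing. Its brighter one read 11.99, 12.00 and 11.87 with ANRIL siRNA, against 12.04, 12.03 and 12.00 with control siRNA, a difference of −0.07 ± 0.07 (SE, n = 3 per group, limma adjusted p = 0.634). ANRIL siRNA replicate 3 lay apart from the other arrays. The second, 202728_s_at, had the most negative value of all 32, −0.24 ± 0.13 (limma adjusted p = 0.414), with 9.24, 9.01 and 9.22 with ANRIL siRNA against 9.74, 9.25 and 9.20 with control siRNA. Control replicate 1 was the highest array, and without it the difference was −0.07. TGFBI, a secreted matrix protein named for its induction by TGF-beta, was read by 1 bright probe set. Its values were 11.10, 11.23 and 11.16 with ANRIL siRNA and 11.06, 11.18 and 11.22 with control siRNA. TGFBI differed by 0.01 ± 0.07 (SE, n = 3 per group), with a 95% interval of −0.15 to 0.17, and the groups overlapped.

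**Figure D3:**
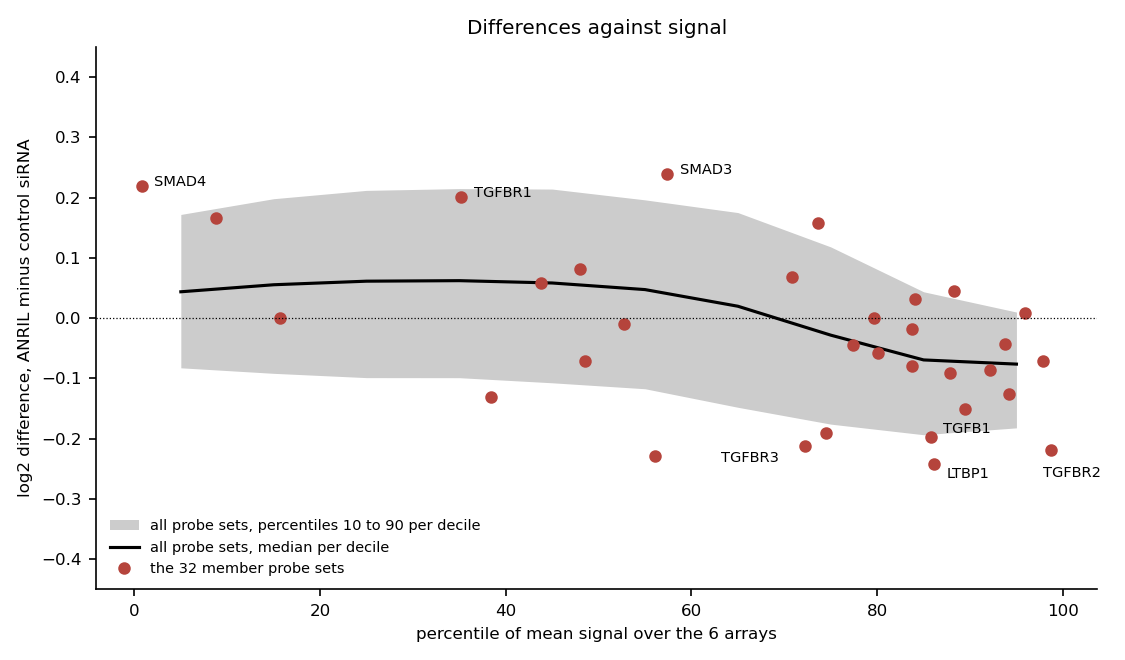
Log2 difference, ANRIL siRNA minus control siRNA, against the percentile of mean signal over the 6 arrays. The line is the median of all probe sets per decile, the grey band is the range given in the legend, and red points are the 32 probe sets of the 10 genes. The median falls below 0 in the 3 brightest deciles, to −0.08 in the brightest, and most red points there lie below 0 as well.

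Lower values were more common at the brighter of these probe sets, as among all probe sets. How far the direction of these genes follows signal was not tested. Of the 24 probe sets above the median signal, 18 lay below 0, or 75%, against 61% of all probe sets above the median. The median difference was −0.06 for these 24 and −0.03 for all above the median signal. Of the 8 at or below the median signal, 2 lay below 0, or 25%, against 31.2% of all. The median difference was 0.07 for these 8 and 0.06 for all there. Unadjusted p-values under 0.05 in the lower direction were found at 5 of the 24 bright probe sets, or 20.8%, against 10.2% of all bright ones. Groups that did not overlap, lower with ANRIL siRNA, were found at 4 of the 24, or 16.7%, against 17.2% of all bright ones, and higher at 0 of the 24, against 7.93%. The members' share thus lay above that of all probe sets above the median by p and near it by overlap. In the 2 brightest deciles, 3 of 15 member probe sets, or 20%, had such a lower p, against 15.6% of all there. Groups without overlap and lower were also found at 3 of 15, or 20%, against 29.9% of all there. These differences were not tested.

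The scaling of the arrays moved the signs. Over all 54613 probe sets 46.1% lay below 0 as deposited, 50.1% after cyclic loess, 48.8% after repeated quantile normalization and 61.5% with arrays centred on their medians. The number of genes below 0 at the brightest probe set was 9 of 10 as deposited, 6 after cyclic loess, 6 after repeated quantile normalization and 10 with centred arrays. Brightest probe sets of TGFB2, SMAD2 and LTBP1 turned above 0 after cyclic loess, at 0.04, 0.04 and 0.01. They did so under repeated quantile normalization too, at 0.06, 0.04 and 0.01. TGFBR2 and TGFB1 kept their sign under all 4 scalings, at −0.27 to −0.14 and −0.25 to −0.12. TGFBI turned to −0.04 with centred arrays.

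**Figure D4:**
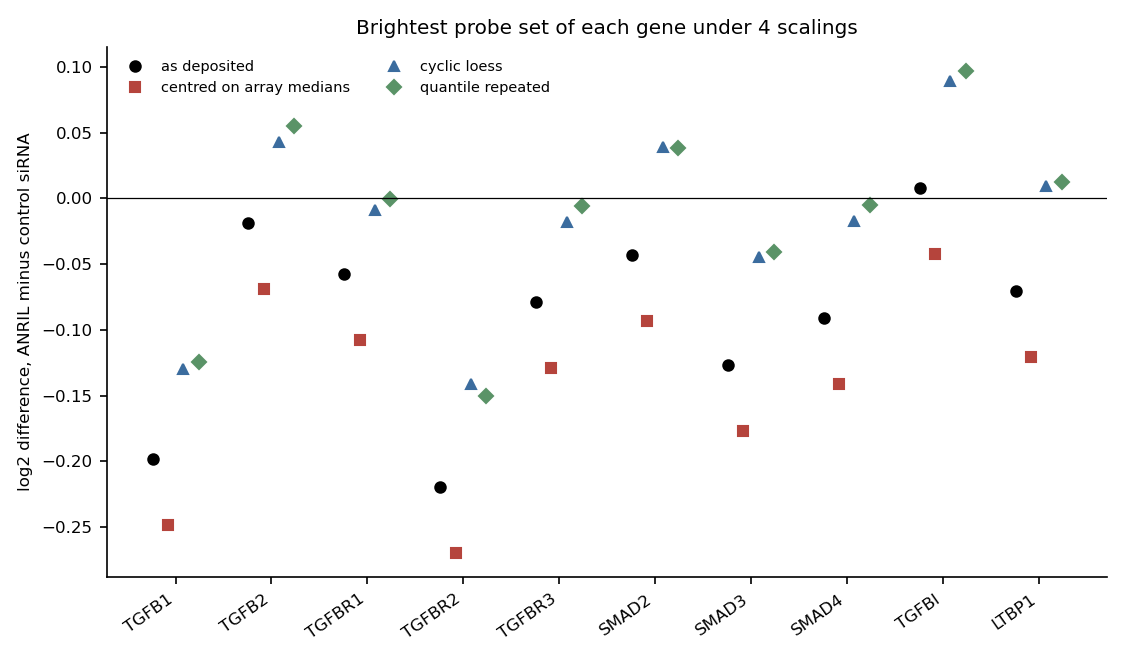
Log2 difference, ANRIL siRNA minus control siRNA, of each gene at its brightest probe set under 4 scalings of the arrays. TGFBR2 and TGFB1 lie lowest under each of them, and TGFB2, SMAD2, TGFBI and LTBP1 have values on both sides of 0.

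The rest of the pathway was described from 5 lists, with each gene at its brightest probe set and p-values adjusted over all 19775 genes. The limma fit called 0 genes of any list and 0 of all genes (0%), where an unadjusted p under 0.05 gave 8.16% of genes lower and 9.83% higher and 51.4% of all genes lay below 0, with a median of 0.00. BMPR1A, TDGF1, ITGB6 and USP15, which no probe set named alone, were not analysed here. Median percentiles of mean signal were 89.8 for latency and activation, 82.1 for receptors and 90.4 for SMAD regulators. They were 87.4 for genes known to be induced through SMAD2 and SMAD3 and 93.2 for those of SMAD1 and SMAD5. In deciles 9 and 10 of signal, the brightest, 79.3% and 87.1% of all probe sets lay below 0. How far the list counts below follow signal was not tested.

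Genes of latency and activation lay below 0 at 9 of 13 measured members, with a median of −0.07. At an unadjusted p under 0.05, 3 of the 13 were lower and 0 higher, against 8.16% and 9.83% of all genes. ITGB8, the integrin subunit that with ITGAV releases TGF-beta from its latent complex, read 8.16, 8.17 and 8.28 with ANRIL siRNA against 8.33, 8.59 and 8.40 with control siRNA. It differed by −0.24 ± 0.08 (SE, n = 3 per group, limma adjusted p = 0.181), though 3 of its 5 probe sets lay above 0. LTBP3, a relative of LTBP1, differed by −0.21 ± 0.08, with 1 of its 3 probe sets below 0, and FBN1, the microfibril protein to which such complexes attach, by −0.19 ± 0.06. The groups did not overlap for these 3 genes, or 3 of 13, where 12.8% of all genes had no overlap and were lower with ANRIL siRNA, and 10.6% had none and were higher.

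Other receptors and co-receptors of the family lay below 0 at 4 of 11 measured members, with a median of 0.02. That median was −0.03 with centred arrays and −0.05 without control replicate 1. At an unadjusted p under 0.05, 1 of the 11 was lower and 2 were higher, against 8.16% and 9.83% of all genes. ACVRL1, the endothelial type I receptor ALK1, read 11.15, 11.32 and 11.27 with ANRIL siRNA against 11.34, 11.50 and 11.37 with control siRNA, and differed by −0.16 ± 0.07 (SE, n = 3 per group, limma adjusted p = 0.275). ENG, its co-receptor endoglin, differed by −0.05 ± 0.06, and its sign turned with cyclic loess (0.02) and with quantile normalization repeated (0.01). ACVR2B, an activin type II receptor, differed by 0.22 ± 0.06, and AMHR2, the receptor for anti-Müllerian hormone, by 0.34 ± 0.08 (limma adjusted p = 0.165 and 0.147), both without overlap and with AMHR2 near the median of mean signal. Of the 11 genes, 2 had no overlap and were higher, and 2 had none and were lower. Over all genes these shares were 10.6% and 12.8%.

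Other SMADs and their regulators lay below 0 at 14 of 18 measured members, with a median of −0.05. That median was 0.02 with cyclic loess and 0.03 with quantile normalization repeated. At an unadjusted p under 0.05, 4 of the 18 were lower and 1 higher, against 8.16% and 9.83% of all genes. FKBP1A encodes FKBP12, which binds the type I receptor and restrains its activity without ligand. It read 12.54, 12.19 and 12.56 with ANRIL siRNA, against 12.87, 12.88 and 12.81 with control siRNA, and each of its 4 probe sets was lower. Its difference was −0.43 ± 0.09 (SE, n = 3 per group, limma adjusted p = 0.147), or −0.31 without ANRIL siRNA replicate 2. SMAD1, which like SMAD5 belongs to the ACVRL1 branch, differed by −0.28 ± 0.06 and was lower at all 3 probe sets (limma adjusted p = 0.147). It read 9.31, 9.30 and 9.31 with ANRIL siRNA against 9.49, 9.67 and 9.62 with control siRNA. TGIF1, a co-repressor of SMAD2 and SMAD3, differed by −0.25 ± 0.07, with 2 of its 3 probe sets below 0. SMAD6 and SMAD7, the inhibitory SMADs, differed by 0.24 ± 0.08 and 0.14 ± 0.08. SMAD6 read 10.95, 11.14 and 10.90 with ANRIL siRNA against 10.66, 10.74 and 10.88 with control siRNA, but 2 of its 4 probe sets lay below 0.

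Genes known to be induced through SMAD2 and SMAD3 lay below 0 at 15 of 22 measured members, with a median of −0.06. At an unadjusted p under 0.05, 5 of the 22 were lower and 0 higher, against 8.16% and 9.83% of all genes. ANGPTL4, a secreted regulator of lipoprotein lipase, read 10.72, 10.76 and 10.70 with ANRIL siRNA against 10.99, 11.08 and 10.97 with control siRNA. It differed by −0.29 ± 0.06 (SE, n = 3 per group, limma adjusted p = 0.144) and was lower at both probe sets. TAGLN, an actin-binding protein of contractile cells, differed by −0.22 ± 0.07, with 2 of its 3 probe sets below 0. TGIF1, given above, also had a p under 0.05, as did NOX4, a NADPH oxidase, at −0.22 ± 0.08, and KLF10, a transcription factor, at −0.17 ± 0.06, all without overlap. NOX4 and KLF10 are named because they complete that count of 5 and were chosen after their values were seen. CCN2, a matricellular protein, read 14.38, 14.38 and 14.39 with ANRIL siRNA against 14.34, 14.37 and 14.29 with control siRNA. It differed by 0.05 ± 0.06, at percentile 99.8 of mean signal, without overlap though only narrowly. The lowest ANRIL siRNA value of CCN2 was 14.3751 and its highest control value 14.3671. Its difference was 0.11 after cyclic loess and −0.003 with centred arrays. Of the 22 genes, 6 had no overlap and were lower, against 12.8% of all genes. Another 2, CCN2 among them, had none and were higher, against 10.6%. PMEPA1, which limits SMAD2 and SMAD3 activation, differed by −0.08 ± 0.08, and SKIL, a SMAD co-repressor, by −0.10 ± 0.08. PMEPA1 was at 0.00 after cyclic loess.

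Genes known to be induced through SMAD1 and SMAD5 lay below 0 at 2 of 6 members, with a median of 0.09. At an unadjusted p under 0.05, 1 of the 6 was higher and 0 lower, against 9.83% and 8.16% of all genes. The median was 0.16 with cyclic loess and with quantile normalization repeated, 0.04 with centred arrays, and 0.03 without ANRIL siRNA replicate 2. ID1, a dominant-negative regulator of transcription and a main target of this branch, read 13.04, 13.06 and 13.07 with ANRIL siRNA against 12.99, 13.06 and 13.06 with control siRNA, a difference of 0.02 ± 0.06. The transcriptional repressors HEY1 and HEY2 differed by 0.21 ± 0.10 and 0.15 ± 0.09. Without ANRIL siRNA replicate 2 they differed by 0.11 and 0.05. HEY1 overlapped between the groups, and HEY2 did not, though only narrowly. The lowest ANRIL siRNA value of HEY2 was 9.3664 and its highest control value 9.3657. Of the 6 genes, 2 had no overlap and were higher, against 10.6% of all genes. Those without overlap and lower were 0 of 6, against 12.8%. SMAD6 is given above.

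**Figure D5:**
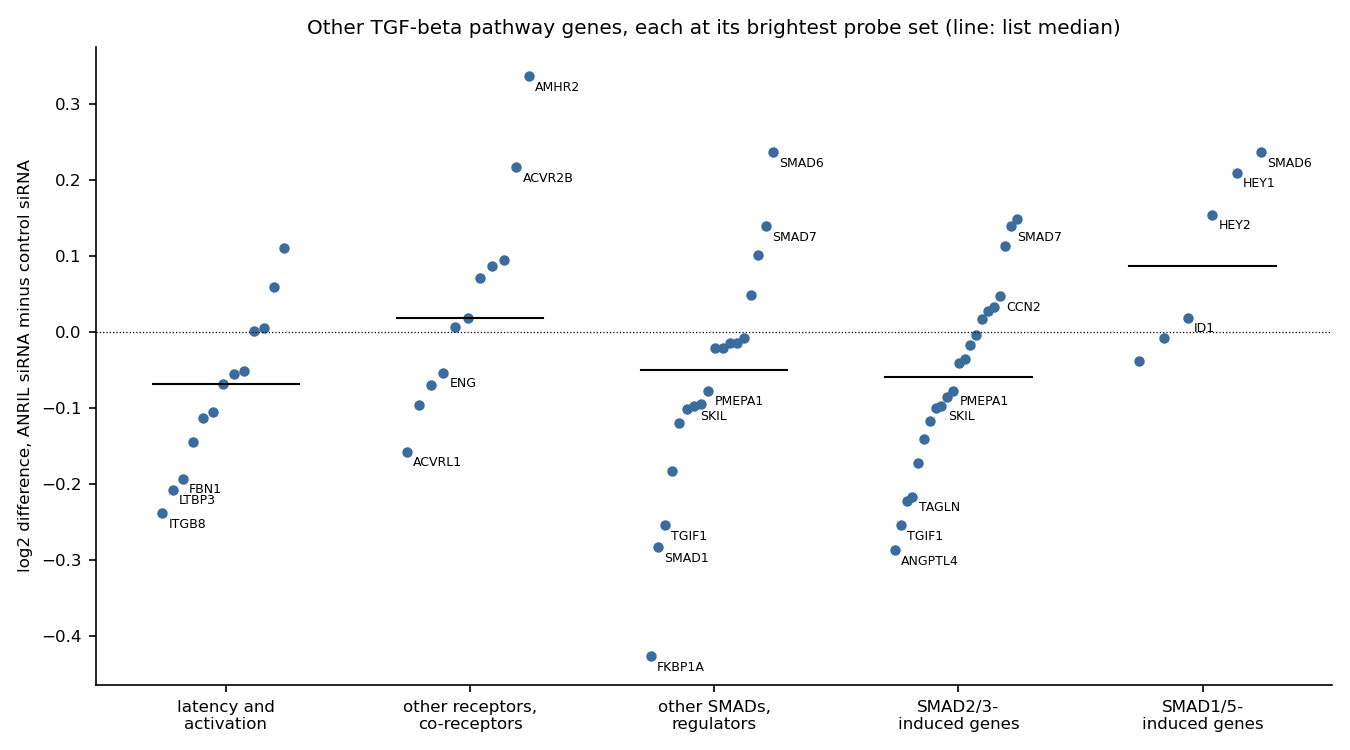
Log2 difference, ANRIL siRNA minus control siRNA, of the other pathway genes in 5 lists, each gene at its brightest probe set and sorted within its list, with the list median as a line. FKBP1A is lowest at −0.43 and AMHR2 highest at 0.34, and no gene passed the threshold. SMAD6, SMAD7, TGIF1, PMEPA1 and SKIL are each in 2 lists.

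With the signal-dependent robust prior, which called 2.74% of all genes, 7 of these genes passed, with FBN1, FKBP1A, SMAD1, TGIF1 and ANGPTL4 lower and AMHR2 and SMAD6 higher (adjusted p = 0.00363 to 0.0492). By list, 1 of 13 latency genes and 2 of 22 genes induced through SMAD2 and SMAD3 were lower. Of 18 SMAD regulators 3 were lower and 1 higher. Of 11 receptors and of 6 genes induced through SMAD1 and SMAD5, 1 each was higher. That prior called 315 probe sets lower and 29 higher over all, and how far its calls follow signal was not tested. With that prior after cyclic loess, which called 0.678% of all genes and 0.143% of all probe sets, ANGPTL4 was lower and SMAD6, CCN2, BMPR2 and SMAD9 were higher (adjusted p = 0.0125 to 0.0442). BMPR2 and SMAD9, a receptor and a SMAD of the bone morphogenetic protein branch, are named because they passed there and were chosen after their values were seen. As deposited, BMPR2 differed by 0.09 ± 0.06 and SMAD9 by 0.10 ± 0.06, and the groups overlapped for both. Of the probe sets of BMPR2, 3 of 6 lay below 0, and of those of SMAD9, 0 of 2. By list, the genes higher after cyclic loess were 1 of 11 receptors, 2 of 18 SMAD regulators and 1 of 22 genes induced through SMAD2 and SMAD3. In that last list 1 was lower, and 1 of 6 genes induced through SMAD1 and SMAD5 was higher. ANGPTL4 and SMAD6 were called both before and after cyclic loess.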

How the data were processed

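The authors deposited 1 table of log2 intensities for 54675 probe sets of the Affymetrix Human Genome U133 Plus 2.0 array on 6 arrays, and RMA, affy and limma are named per the submitters' processing notes, with no version. RMA corrects background, normalizes by quantiles across arrays and summarises each probe set. Here 62 control probe sets were left out. Symbols came from the platform annotation and were updated through RefSeq (GRCh38.p14), where 41037 of 41091 probe sets with 1 symbol matched. Coordinates are not printed because the sources name no build for the values. The fit used limma 3.58.1 (R 4.3.3; lmFit, then eBayes with a constant prior), without a block and with Benjamini-Hochberg adjustment, over 54613 probe sets, or over 19775 genes at the probe set of highest mean. The fit was tested on simulated data. Members and lists were chosen with earlier results of these data known. Named beside the members were ANRIL, 9 pathway genes, of which 1 is not reported here, and the 3 genes of smallest p in each list. Alternatives were the replicate block, array weights, a trended robust prior, 3 scalings, a signal filter, other thresholds, other probe set rules and each array left out. Cyclic loess with the trended prior was added after the data had been seen.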

Additional observations from a re-analysis of the deposited data

How the results depend on the processing

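Of 459 values of the 32 probe sets under the alternatives, 407 kept their sign and side of the threshold, 51 changed sign and 1 came to pass. The cause was not tested for any change. Cyclic loess turned LTBP1 to 0.0094, SMAD2 to 0.039 (239271_at to −0.0047), TGFB2 to 0.043 (209908_s_at to −0.054), SMAD4 235725_at to 0.046, ENG to 0.025 and PMEPA1 to 0.0035, with medians of −0.0066 for the 32 probe sets, 0.020 for the SMAD regulators and −0.018 for genes induced through SMAD2 and SMAD3. Repeated quantile normalization gave LTBP1 0.013, SMAD2 0.038, SMAD3 205398_s_at 0.00070, SMAD4 235725_at 0.051, TGFB2 0.055 (209908_s_at −0.056, 209909_s_at 0.0012), ENG 0.0064 and PMEPA1 0.0091, with medians of 0.00094 for the 32, 0.027 for the SMAD regulators, −0.012 for genes induced through SMAD2 and SMAD3 and −0.023 for latency genes. Arrays centred on their medians gave TGFBI −0.043, SMAD2 −0.0055 (203075_at) and −0.019 (226563_at), TGFB2 209908_s_at −0.050, CCN2 −0.0026 and ID1 −0.031, medians of −0.094 for the 32, −0.12 for latency genes, −0.032 for receptors, −0.100 for SMAD regulators and −0.11 for genes induced through SMAD2 and SMAD3, 4 probe sets called lower and 1 SMAD regulator called lower (FKBP1A). Array weights turned TGFBI to −0.014 and SMAD4 235725_at to 0.0058. The mean of all probe sets turned SMAD2 to 0.0016, SMAD4 to 0.045, TGFBR1 to 0.044 and the SMAD regulators' median to 0.012, and leaving aside _s_at and _x_at probe sets turned SMAD2 to 0.045 and TGFB1 to 0.082. The trended robust prior called 29 probe sets higher and 315 lower, with 1 of the 32 (TGFBR2, −0.22), 1 latency gene lower, 1 receptor higher, 1 SMAD regulator higher and 3 lower, 2 genes induced through SMAD2 and SMAD3 lower and 1 induced through SMAD1 and SMAD5 higher. After cyclic loess that prior called 20 higher and 58 lower, none of the 32, 1 receptor, 2 SMAD regulators and 1 gene of each induced list higher, and 1 gene induced through SMAD2 and SMAD3 lower. Above the median signal 1 probe set was called lower. An unadjusted p under 0.05 gave 4891 higher and 3355 lower, with 2 and 5 of the 32. With each array left out in turn, the median of the 32 lay between −0.050 and −0.0089, those of latency genes between −0.11 and −0.019, receptors between −0.047 and 0.076 and genes induced through SMAD2 and SMAD3 between −0.11 and −0.029. Values that changed sign were TGFB2 (−0.053 to 0.018, 209909_s_at −0.12 to 0.044, 209908_s_at −0.057 to 0.070), TGFBR1 236561_at (−0.056 to 0.049), SMAD2 226563_at (−0.016 to 0.066) and 239271_at (−0.028 to 0.15), SMAD4 (−0.17 to 0.0063, 235725_at −0.042 to 0.041, 1565703_at −0.26 to 0.051), TGFBI (−0.038 to 0.040), CDKN2B-AS1 (−0.16 to 0.024) and ID1 (−0.0058 to 0.033). The replicate number was not taken to pair the arrays, since the sources do not say what it marks and not every pair deviated together. Deviations from the group means correlated at 0.0611, 0.139 and −0.0398 for replicates 1, 2 and 3, and 2 of 3 ANRIL siRNA arrays correlated best with the control array of their own number. With the replicate block 0 probe sets were called and the smallest adjusted p of the 32 was 0.261. The signal of the dim probe sets, near the floor, limits what they can show.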
